A study of Mus musculus with 12 samples.

Results

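The secreted inflammatory factors of senescent cells were examined here as a set of 10 genes, the cytokines Il6, Lif, Il1a and Il1b, the chemokines Ccl2, Ccl7, Cxcl1 and Cxcl5, and the matrix metalloproteinases Mmp3 and Mmp13. They were 10 of 21911 protein-coding genes in the annotation. For each gene, every deposited region of H3K27ac or H3K27me3 that overlapped the gene body or the 50 kb on either side of it was taken. This gave 24 of 31617 H3K27ac regions and 13 of 28047 H3K27me3 regions. The regions followed from their position relative to the genes, and the genes were listed with earlier results of these data known.

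The marks were mapped by CUT&RUN, in which an antibody brings a nuclease to a histone mark in permeabilised cells and the released DNA is sequenced. The cells were mesenchymal stem cells (MSCs), stromal cells able to form bone, fat and cartilage, from young mice of 3 to 5 months and old mice of 18 to 22 months. All cells of both ages were kept at 2% oxygen, and each cell suspension was split between the antibodies against H3K27ac and H3K27me3. Each mark was measured in 3 young and 3 old libraries, 12 in all. The labels named no strain, sex, passage or treatment, and did not say whether the libraries of a group came from separate mice, so the p-values measure the spread between these samples, which may be technical.

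Cells that stop dividing for good often begin to release cytokines, chemokines and proteases, a programme known as the senescence-associated secretory phenotype. Interleukin 1 acts through its receptor to activate NF-kappaB, which together with C/EBP and AP-1 factors drives the transcription of IL-6, of the chemokines that draw monocytes and neutrophils, and of proteases that cut the matrix. H3K27ac marks active promoters and enhancers, and H3K27me3 is placed by Polycomb complexes at genes that are kept silent.

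Values below are scaled signal, that is the reads of a region relative to all reads of the library, divided by a constant 0.5 kb and then by a factor that aligns the typical region of the 6 libraries of a mark. They are given as mean ± SD with n = 3 libraries. Library totals were worked back from the deposited signal with this constant of 0.5 kb. They came to 2750953 to 5541429 reads for H3K27ac and 3622108 to 9947515 reads for H3K27me3. Old replicate 2 was the shallowest library of both marks. The median region held 12 to 30 reads in an H3K27ac library and 28 to 79 in an H3K27me3 library. The stromal character of the cells was visible in the marks: an H3K27ac region covered the start site of 9 of 9 MSC markers, of 1 of 7 blood and macrophage markers and of 0 of 4 endothelial markers. An H3K27me3 region covered the start of 1 of the 9 MSC markers (Nt5e), of 2 of the 7 blood and macrophage markers and of 3 of the 4 endothelial markers. The start of Ptprc, the pan-leukocyte gene, carried no region of either mark. The blood marker that was covered, Cd68, shared its region with 4 other start sites. The summed H3K27ac signal per kb over the MSC markers was 26.1 to 27 in young and 26.0 to 30.4 in old libraries, so the ranges overlapped. The samples were bulk, so more of a mark per cell and more cells with the mark cannot be told apart.

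The 10 genes did not share 1 chromatin state at their start sites (the transcription start of the annotated gene with 1 kb on either side). An H3K27ac region, without H3K27me3, covered the start of Il6, Ccl2, Ccl7, Cxcl1 and Cxcl5. An H3K27me3 region, without H3K27ac, covered the start of Il1a and Il1b. Neither mark lay over the start of Lif, Mmp3 or Mmp13, and no member carried both. Over all protein-coding genes, 44.2% of starts had H3K27ac only, 25.9% H3K27me3 only, 7.42% both and 22.5% neither.

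**Figure D1:**
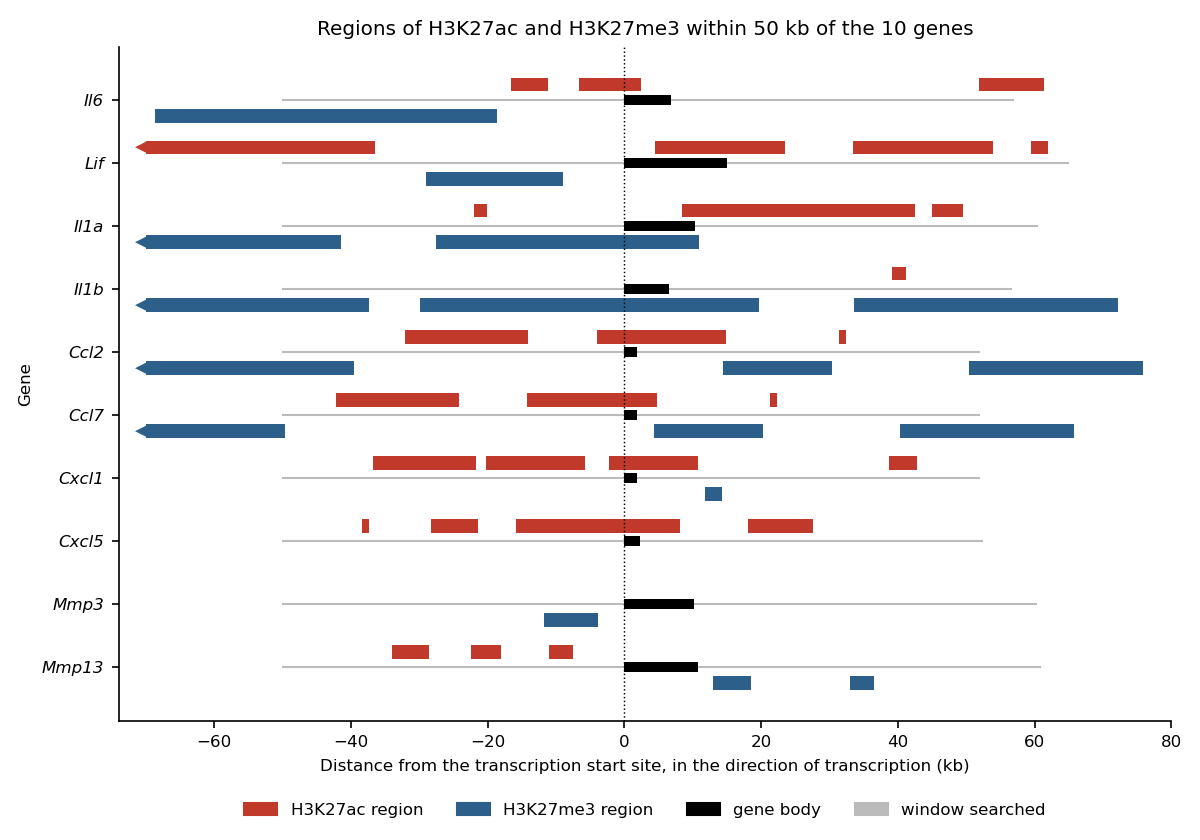
Position of every H3K27ac region (red) and H3K27me3 region (blue) within 50 kb of the 10 genes, as distance in kb from the transcription start site in the direction of transcription, with the gene body in black, the searched window in grey and an arrowhead where a region runs past the left edge. Red bars cross the start of Il6, Ccl2, Ccl7, Cxcl1 and Cxcl5, blue bars cross the start of Il1a and Il1b, Cxcl5 has no blue bar and Mmp3 has no red bar.

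Every member had a region of at least 1 mark in its window. Mmp3 had no H3K27ac region and Cxcl5 had no H3K27me3 region, and the other 8 genes had both. The H3K27ac regions were 1.0 to 63.5 kb long with a median of 9.25 kb, and the H3K27me3 regions were 2.5 to 192.5 kb long with a median of 20.0 kb. Neighbouring members shared regions. Ccl2 and Ccl7, whose starts are 10.1 kb apart on chromosome 11, shared all 3 of their H3K27ac and all 3 of their H3K27me3 regions and are therefore 1 measurement. Il1a and Il1b, 61.2 kb apart on chromosome 2, shared 1 H3K27ac and 2 H3K27me3 regions. Cxcl1 and Cxcl5 on chromosome 5 (132 kb apart) and Mmp3 and Mmp13 on chromosome 9 (173 kb apart) shared none.

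The sequences just before the start sites are shown because they lie inside the regions compared below, or, for Mmp3, because the gene had no H3K27ac region at all. RefSeq promoter sequences on GRCm38.p6 were matched for 7 of the 10 genes, not for Ccl2, Ccl7 and Cxcl5. The 250 bases before the start are printed 5′ to 3′ on the strand of the gene. Capitals mark matches on either strand to an AP-1 motif (TGANTCA), a C/EBP motif (TTGCNNAA), the NF-kappaB consensus or a TATA box (TATAAA). Il6 (chr5:30012864-30013113, plus strand) and Cxcl1 (chr5:90890995-90891244, plus strand) lay in H3K27ac regions, Il1a (chr2:129309973-129310222, minus strand) and Il1b (chr2:129371140-129371389, minus strand) in H3K27me3 regions, and Mmp3 (chr9:7445572-7445821, plus strand) in neither.
Il6: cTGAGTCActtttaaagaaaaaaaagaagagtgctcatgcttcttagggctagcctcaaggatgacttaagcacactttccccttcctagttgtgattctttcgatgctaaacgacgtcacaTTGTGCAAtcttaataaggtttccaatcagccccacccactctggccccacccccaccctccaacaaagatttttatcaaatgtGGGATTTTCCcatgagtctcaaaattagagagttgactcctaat
Cxcl1: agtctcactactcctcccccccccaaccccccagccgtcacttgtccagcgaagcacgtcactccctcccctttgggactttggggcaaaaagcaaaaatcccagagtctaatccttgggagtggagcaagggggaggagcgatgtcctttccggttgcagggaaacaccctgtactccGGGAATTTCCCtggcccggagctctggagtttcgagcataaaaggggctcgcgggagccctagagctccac
Il1a: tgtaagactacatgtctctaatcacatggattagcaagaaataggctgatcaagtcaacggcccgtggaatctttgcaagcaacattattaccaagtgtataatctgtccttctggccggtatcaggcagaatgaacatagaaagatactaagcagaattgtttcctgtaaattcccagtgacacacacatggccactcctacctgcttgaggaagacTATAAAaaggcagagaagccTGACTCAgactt
Il1b: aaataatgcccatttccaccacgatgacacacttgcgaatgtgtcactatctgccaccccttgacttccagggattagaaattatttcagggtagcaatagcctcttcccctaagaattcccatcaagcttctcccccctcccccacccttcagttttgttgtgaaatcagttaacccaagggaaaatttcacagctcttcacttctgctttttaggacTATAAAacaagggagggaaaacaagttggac
Mmp3: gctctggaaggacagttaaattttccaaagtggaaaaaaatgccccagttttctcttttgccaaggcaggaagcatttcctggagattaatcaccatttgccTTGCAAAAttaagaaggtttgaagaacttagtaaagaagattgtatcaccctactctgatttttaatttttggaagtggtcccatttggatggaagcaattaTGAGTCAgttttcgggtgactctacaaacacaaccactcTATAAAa

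The Il6 stretch held 1 AP-1, 1 C/EBP and 1 NF-kappaB match, the last of these beginning 44 bases before the start. The Cxcl1 stretch held 2 NF-kappaB matches that overlap each other, 1 on each strand, from 71 bases before the start. Il1a and Il1b each held a TATA box about 30 bases upstream, beginning 32 and 31 bases before the start, and Il1a also held an AP-1 match. Over the 7 sequences, AP-1 was matched in 5, C/EBP in 2, NF-kappaB in 3 and TATA in 4. Among 32536 distinct upstream stretches of the same length in the RefSeq table, AP-1 was matched in 6.73%, C/EBP in 9.57%, NF-kappaB in 7.28% and TATA in 12.3%. CpG dinucleotides numbered 3 for Il6, 10 for Cxcl1, 3 for Il1a, 2 for Il1b and 1 for Mmp3, beside a median of 6 over all stretches. A match to these letters describes the sequence and does not show that a factor bound there.

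The comparison asked whether the marks around these genes differed between old and young MSCs. At an adjusted p under 0.05 (limma, Benjamini-Hochberg over all regions of a mark), 0 of the 24 H3K27ac regions and 0 of the 13 H3K27me3 regions of the members were called. Few regions were called anywhere: 0.0822% of all H3K27ac and 0.488% of all H3K27me3 regions. At an unadjusted p under 0.05 the members had 5 of 24 H3K27ac regions (20.8%, against 9.60% of all regions) and 2 of 13 H3K27me3 regions (15.4%, against 13.9% of all). The median log2 fold change of the member regions, old over young, was -0.0029 for H3K27ac, against -0.0028 over all regions, and 0.15 for H3K27me3, against -0.0077 over all. H3K27ac was higher in old for 11 member regions and lower for 13, and H3K27me3 was higher for 9 and lower for 4. Over all regions 49.6% were higher in old for H3K27ac and 48.6% for H3K27me3. Of the 13 H3K27me3 member regions, 5 were shared by neighbouring members, and regions of the same locus are not independent. The 3 old libraries all lay above the 3 young ones in 3 H3K27ac member regions (12.5%, against 7.09% of all regions) and all below in 1 (4.17%, against 7.42%). For H3K27me3 they lay above in 3 (23.1%, against 8.56%) and below in 2 (15.4%, against 10.6%). Of the 2 below, 1 is a 2.5 kb region upstream of Il1b whose deposited state was young only. It is also 1 of the 2 H3K27me3 regions with an unadjusted p under 0.05. Its state already set it apart by age, so it is no independent support in either count.

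**Figure D2:**
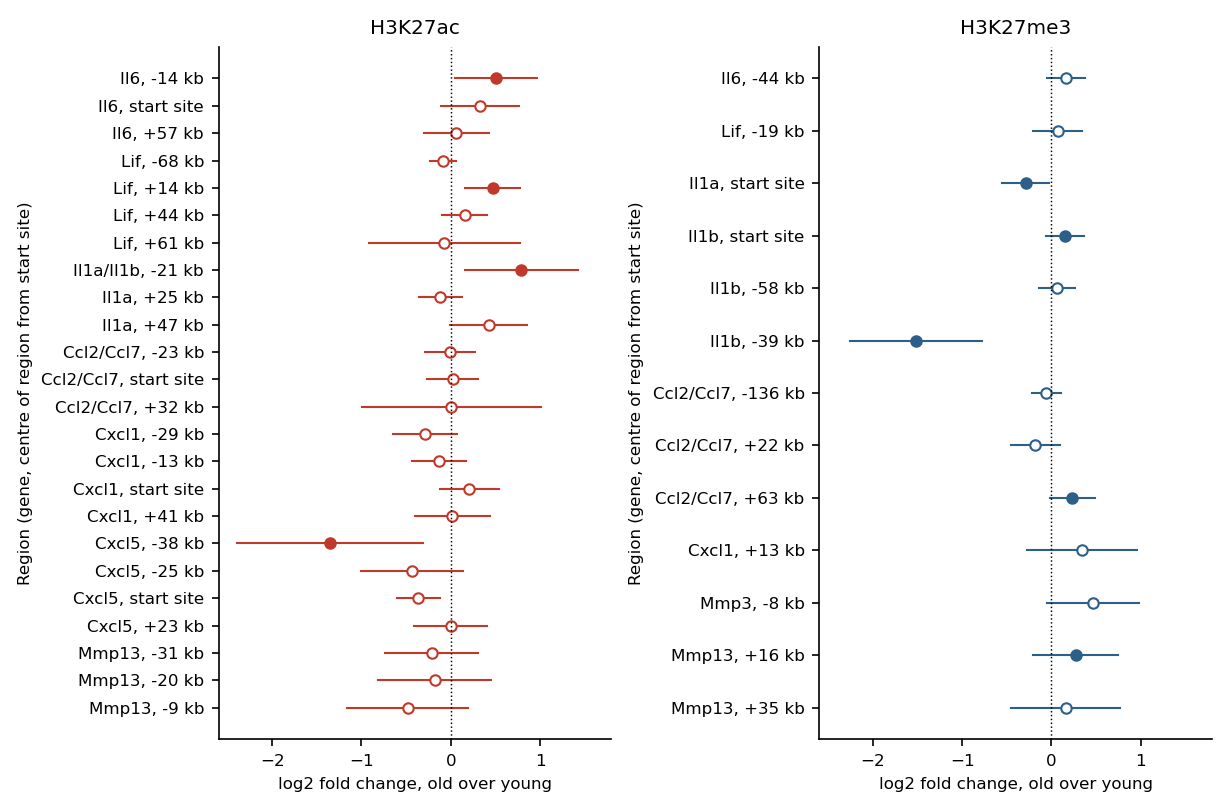
Log2 fold change, old over young, of the 24 H3K27ac regions (left) and the 13 H3K27me3 regions (right) of the 10 genes, with 95% intervals from the limma fit; filled points mark regions whose old and young libraries did not overlap. Points scatter on both sides of 0, and the 2 lowest, at -1.36 near Cxcl5 and -1.52 near Il1b, belong to short regions with few reads.

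Il6 encodes interleukin 6, which signals through gp130 and STAT3. Its start lay in a 9.0 kb H3K27ac region (chr5:30006501-30015500, mm10) that reached from -6.61 to 2.39 kb relative to the start, over exons and UTR of the gene. The scaled signal was 17.6, 11.5 and 18.1 in the young and 14.7, 22.0 and 22.9 in the old libraries. Young replicate 2 was the lowest and old replicates 2 and 3 the highest, and the groups overlapped. Old over young, the log2 fold change was 0.33 (SE 0.21, 95% interval -0.11 to 0.76, adjusted p = 0.669). It was 0.13 without young replicate 2 and 0.53 without old replicate 1.

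An H3K27ac region of 5.5 kb upstream of Il6, intergenic with respect to protein-coding genes (chr5:29996501-30002000, ending 11.1 kb before the start) read 9.80, 11 and 9.87 in young and 13.6, 15.7 and 14.8 in old libraries. Here all old libraries lay above all young ones, at 19 to 34 reads per library. Its log2 fold change of 0.50 (SE 0.23, adjusted p = 0.470) did not pass the test. The remaining H3K27ac region of the window, over exons of Tyms, had a log2 fold change of 0.06 (adjusted p = 0.944). The H3K27me3 domain of the window, 50.0 kb of intergenic sequence that ended 18.6 kb before the Il6 start, was at 77.6 ± 6.35 in young and 87.1 ± 8.26 in old libraries (log2 fold change 0.17, SE 0.10, adjusted p = 0.502). The groups overlapped in this domain. No region of the Il6 window was called in either mark.

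Lif encodes leukemia inhibitory factor, a cytokine of the IL-6 family that shares the gp130 receptor. No region covered its start. The nearest H3K27ac region (chr11:4262001-4281000, 19.0 kb) began 4.44 kb inside the gene, took in exons and UTR, and ran past the end of the gene. Its scaled signal was 25.5, 31.2 and 36.8 in young and 40.7, 46.4 and 41.8 in old libraries. All 3 old libraries were above all 3 young ones, and old replicate 2, the shallowest, was the highest. The log2 fold change was 0.47 (SE 0.15, 95% interval 0.16 to 0.78), with an unadjusted p of 0.00348 and an adjusted p = 0.243 in the limma fit, the smallest adjusted p of any H3K27ac member region.

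For the other 3 H3K27ac regions in the Lif window the log2 fold change was -0.09 (a 63.5 kb domain over Sf3a1, Tbc1d10a and neighbours), 0.15 and -0.07, each with overlapping groups. The H3K27me3 region of the window covered Osm, the gene of oncostatin M, another gp130 cytokine, and stopped 9.06 kb before the Lif start. It was at 34.5 ± 5.08 in young and 36.1 ± 2.16 in old libraries (log2 fold change 0.07, adjusted p = 0.855).

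Il1a and Il1b encode interleukin 1 alpha and beta, which stand at the head of the secretory cascade. Both starts lay in broad H3K27me3 domains. The Il1a domain (chr2:129299001-129337500, 38.5 kb, the whole gene) read 67.9, 71.2 and 66.4 in young and 65.3, 44.4 and 60.5 in old libraries. All old libraries were below all young ones, and old replicate 2 was the farthest down. The log2 fold change was -0.29 (SE 0.13, 95% interval -0.55 to -0.03, adjusted p = 0.297), and without old replicate 2 it was -0.12 (adjusted p = 0.669). The Il1b domain (chr2:129351501-129401000, 49.5 kb, the whole gene) read 76.0, 65.0 and 77.9 in young and 81.6, 81.9 and 78.6 in old libraries. Here the old libraries lay above the young ones, by 0.15 on the log2 scale (SE 0.10, 95% interval -0.06 to 0.36, adjusted p = 0.546). The 2 domains thus differed in sign, and neither passed the test.

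Inside the Il1a domain, 20.0 kb upstream of the gene, lay a short H3K27ac region (chr2:129330001-129332000, 2.0 kb, intergenic) that was also the one H3K27ac region of the Il1b window. It was covered over its full length by H3K27me3. Its H3K27ac signal was 3.92, 5.19 and 4.93 in young and 7.57, 11.8 and 6.62 in old libraries, from 9 to 19 reads per library. The groups did not overlap, and old replicate 2 was the highest. Old over young this was 0.79 on the log2 scale (SE 0.31, 95% interval 0.15 to 1.43, adjusted p = 0.394). The other H3K27ac regions of the Il1a window were a 34.0 kb domain over Ckap2l that reached the last exon and UTR of Il1a (-0.11, adjusted p = 0.810) and an intergenic region 45.0 kb past the start (0.42, adjusted p = 0.528).

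The smallest adjusted p of any member region came from a 2.5 kb H3K27me3 region upstream of Il1b (chr2:129408501-129411000, intergenic, 37.4 to 39.9 kb before the start). It was the only member region whose deposited state was young rather than both ages, and it abutted a 36.0 kb H3K27me3 domain. That state already set the region apart by age, so its p-values and calls are not independent support for a difference. Its scaled signal was 3.95, 4.02 and 4.45 in young and 1.75, 0.569 and 1.27 in old libraries. The reads behind these values were 20, 20 and 17 in young and 8, 1 and 4 in old libraries, so old replicate 2 was below the floor of 3 reads. This gave a log2 fold change of -1.52 (SE 0.36, 95% interval -2.26 to -0.78, adjusted p = 0.0592). This region was called under 5 of the 14 alternative settings that kept it, among them edgeR's quasi-likelihood test on the recovered reads (adjusted p = 0.0428) and the fit without old replicate 1 (adjusted p = 0.0481). The neighbouring 36.0 kb domain was at 89.6 ± 3.99 in young and 94.1 ± 7.29 in old libraries (log2 fold change 0.07, adjusted p = 0.810).

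Ccl2 and Ccl7 encode monocyte chemoattractants that act through CCR2 and related receptors. One H3K27ac region of 19.0 kb (chr11:82031501-82050500) covered both genes whole. Its signal was 54.6, 39.8 and 65.8 in young and 50.2, 58.2 and 51.5 in old libraries. The young libraries spread more widely than the old ones, and all old values lay inside the young range. Old and young means differed by a log2 fold change of 0.02 (SE 0.14, 95% interval -0.26 to 0.31, adjusted p = 0.977), and its sign turned in 5 of 15 alternative settings. The 18.0 kb region upstream was at 41.3 ± 4.77 in young and 41.0 ± 2.00 in old libraries, and a 1.0 kb region downstream, of 2 to 8 reads, at 2.60 ± 0.30 and 3.10 ± 2.26.

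H3K27me3 framed the Ccl2 and Ccl7 region without covering either start. A 16 kb region over Ccl11, the eotaxin gene, began 4.29 kb past the Ccl7 start and was at 30.2 ± 2.07 in young and 26.6 ± 2.18 in old libraries (log2 fold change -0.18, adjusted p = 0.582). A 25.5 kb region over Ccl12, another monocyte chemoattractant, was at 35.6 ± 0.708 in young and 42.1 ± 4.01 in old libraries, with all old libraries above all young ones (log2 fold change 0.24, SE 0.12, adjusted p = 0.395). A domain of 192.5 kb that reached over Asic2 gave -0.06 (adjusted p = 0.806).

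Cxcl1 and Cxcl5 encode chemokines that draw neutrophils through CXCR2. The start of Cxcl5 lay in a 24.0 kb H3K27ac region (chr5:90743501-90767500) that held the whole gene. Its signal was 80, 69.2 and 84.2 in young and 69.4, 51.1 and 61.7 in old libraries. Old replicate 1 and young replicate 2 met at the edge of the groups, and the other libraries kept apart. The log2 fold change was -0.36 (SE 0.12, 95% interval -0.60 to -0.12), with an unadjusted p of 0.00444 and an adjusted p = 0.262.

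A 1.0 kb H3K27ac region 37.4 kb before the Cxcl5 start (chr5:90721001-90722000) held 8, 11 and 11 reads in young and 5, 2 and 1 in old libraries. Its scaled signal was 2.61, 6.35 and 3.62 in young and 1.99, 1.57 and 0.510 in old libraries, with no overlap. With so few reads the log2 fold change of -1.36 had an SE of 0.51 and an adjusted p = 0.363. The region of 7.0 kb between this one and the gene gave -0.43 (adjusted p = 0.664), and the region over Cxcl3, a further CXCR2 ligand, was at 20.0 ± 5.36 in young and 19.6 ± 2.73 in old libraries.

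The start of Cxcl1 lay in a 13.0 kb H3K27ac region (chr5:90889001-90902000) with the whole gene. The signal was 22.5, 29.4 and 28.0 in young and 32.7, 27.5 and 32.1 in old libraries, and the groups overlapped. The difference was 0.21 on the log2 scale (SE 0.16, 95% interval -0.12 to 0.54, adjusted p = 0.727). The 2 regions before it, 14.5 and 15.0 kb long, had log2 fold changes of -0.13 and -0.29, and the region at Mthfd2l one of 0.02. The one H3K27me3 region of the window lay over Cxcl2, the neighbouring CXCR2 ligand, with 7 to 19 reads per library, and was at 2.93 ± 0.722 in young and 3.80 ± 0.272 in old libraries (log2 fold change 0.35, adjusted p = 0.654).

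Mmp3 and Mmp13 encode stromelysin 1 and collagenase 3, which degrade the matrix of cartilage and bone. Their starts carried neither mark. The 3 H3K27ac regions of the window lay upstream of Mmp13, and the nearest of them (chr9:7261501-7265000, 3.5 kb) ended 7.51 kb before the start. It read 5.88, 10.4 and 10.5 in young and 10.4, 3.15 and 6.62 in old libraries, from 4 to 32 reads. The low value of old replicate 2 rested on 4 reads, and the groups overlapped (log2 fold change -0.48, SE 0.33, adjusted p = 0.691). Without old replicate 2 the log2 fold change was -0.06, and without old replicate 1 it was -0.85. For the other 2 regions it was -0.21 and -0.18. The nearest H3K27me3 region (chr9:7285501-7291000) lay 13.0 kb past the Mmp13 start and was at 6.09 ± 0.574 in young and 7.51 ± 1.38 in old libraries, all old above all young (log2 fold change 0.27, adjusted p = 0.642). The second one, 33.0 kb past the start, gave 0.16 (adjusted p = 0.858).

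Mmp3 had a single region, of H3K27me3 (chr9:7434001-7442000, 8.0 kb, intergenic, ending 3.82 kb before the start). Its signal was 6.52, 9.25 and 6.54 in young and 14.4, 6.82 and 11.1 in old libraries. Old replicates 1 and 3 were above all young libraries, and old replicate 2 was not. Old over young the difference was 0.46 on the log2 scale (SE 0.25, 95% interval -0.05 to 0.98, adjusted p = 0.414). It was 0.23 without old replicate 1 and 0.75 without old replicate 2 (adjusted p = 0.705 and 0.0775).

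To compare the level of a mark between genes, the signal of the start-site regions was divided by their length. In young MSCs the H3K27ac signal per kb was 3.24 ± 0.322 at Cxcl5, 2.81 ± 0.685 at Ccl2 and Ccl7, 2.05 ± 0.279 at Cxcl1 and 1.75 ± 0.406 at Il6. Each gene overlapped its neighbour in this order in its range over libraries. Cxcl5 and Il6 did not overlap in young libraries, with 2.89 to 3.51 against 1.28 to 2.01. In old MSCs Cxcl5 came after Ccl2 and Ccl7, with 2.81 ± 0.226 at Ccl2 and Ccl7, 2.53 ± 0.382 at Cxcl5, 2.37 ± 0.218 at Cxcl1 and 2.21 ± 0.498 at Il6, and Cxcl5 (2.13 to 2.89) and Il6 (1.64 to 2.55) overlapped. Among 8406 H3K27ac regions over a start site, with a median of 2.35, the mean over all 6 libraries put Cxcl5 at the 79th and Il6 at the 23rd percentile. The H3K27me3 signal per kb was 1.78 ± 0.0636 in young and 1.47 ± 0.285 in old libraries at Il1a, and 1.47 ± 0.141 and 1.63 ± 0.0369 at Il1b. Both were under the median of 2.04 over 5490 H3K27me3 regions at start sites, at the 27th and 22nd percentile.

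**Figure D3:**
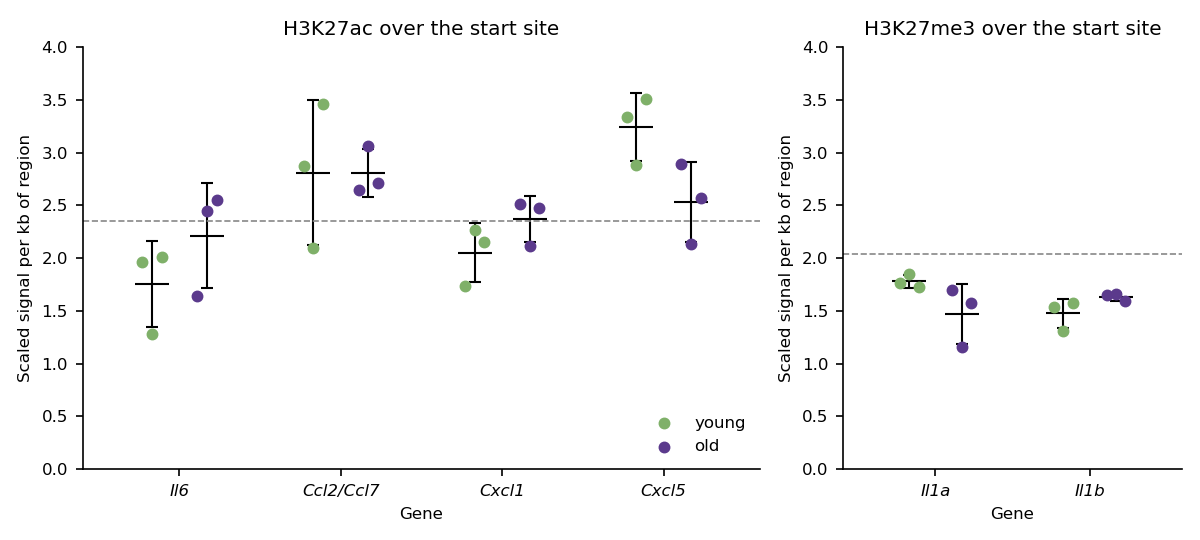
Scaled signal per kb of the H3K27ac regions over the start of Il6, Ccl2 and Ccl7 (1 shared region), Cxcl1 and Cxcl5, and of the H3K27me3 regions over the start of Il1a and Il1b, in each young (green) and old (purple) library, with mean and SD (n = 3). The dashed line is the median over all start-site regions of the mark (2.35 and 2.04); young Cxcl5 libraries lie above it and both interleukin 1 genes lie below it.

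The regions of each window were also summed, to give 1 value per gene and mark. Each region was summed whole, also where it ran past the window. Of 17226 genes with an H3K27ac region in the window, 0.679% were called, and of 17422 genes with an H3K27me3 region, 0.436%. None of the members was called (limma, adjusted p under 0.05) in either mark; at an unadjusted p under 0.05 they had 2 of 9 H3K27ac windows (22.2%, against 12.1% of all windows) and 0 of 9 H3K27me3 windows (against 14.4% of all). Old libraries lay wholly above young ones in the H3K27ac window of Il1b (11.6% of all windows) and wholly below in that of Cxcl5 (5.01% of all windows). For H3K27me3, 0 member windows lay wholly above (6.54% of all windows) and 0 wholly below (13.0%).

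The Cxcl5 window had the lowest log2 fold change of summed H3K27ac among the 9 member windows. It held 116, 103 and 119 units of scaled signal in young and 103, 75.5 and 90.2 in old libraries, with 96 to 362 reads. The groups were parted by a narrow gap between young replicate 2 and old replicate 1. The log2 fold change was -0.34 (SE 0.10, 95% interval -0.54 to -0.14, adjusted p = 0.0935), or 0.789 of the young level. Single libraries moved this value. Without old replicate 1 the log2 fold change was -0.45 (adjusted p = 0.0159), without old replicate 2 it was -0.23 (adjusted p = 0.608), and without young replicate 1 it was -0.32 (adjusted p = 0.527). The Cxcl5 window was the only member window called in any of the alternatives.

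The Il6 window held 47.5 ± 5.24 in young and 57.0 ± 7.00 in old libraries (log2 fold change 0.26, SE 0.13, adjusted p = 0.414). The H3K27ac window of Il1b was the short region inside the Il1a domain described above, at 0.79 (adjusted p = 0.293). The windows of Lif (0.02), Il1a (0.07), Ccl2 and Ccl7 (0.01), Cxcl1 (-0.05) and Mmp13 (-0.28) had adjusted p-values of 0.572 to 0.974. In the young mean, 228 of the 315 H3K27ac units of the Lif window came from the 63.5 kb domain over Sf3a1 and Tbc1d10a. With a window of 10 kb the Lif value was 0.47 (limma, adjusted p = 0.143). The Mmp13 value was -0.03 without old replicate 2 and was -0.50 without old replicate 1. For H3K27me3 the log2 fold changes were 0.17 for Il6, 0.07 for Lif, -0.04 for Il1a, -0.02 for Il1b, -0.04 for Ccl2 and Ccl7, 0.35 for Cxcl1, 0.46 for Mmp3 and 0.24 for Mmp13, with adjusted p-values of 0.392 to 0.939. For Ccl2 and Ccl7, 356 of the 422 H3K27me3 units in the young mean came from the 192.5 kb domain that reached over Asic2. The 95% intervals show what these data could not separate: -0.00057 to 0.52 for H3K27ac at Il6, -0.20 to 0.23 at Ccl2 and Ccl7 and -0.24 to 0.13 at Cxcl1.

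The balance of the marks was described as log2 H3K27ac signal minus log2 H3K27me3 signal, for the same-numbered library. That equal numbers in both marks stand for the same cell suspension was assumed, because the titles do not state it. Each signal was divided by the summed length of that mark's regions in a window, not by the window length. At Il1b these lengths were 2.0 kb for H3K27ac and 126.5 kb for H3K27me3. The tables of the marks were normalised separately, so the level of the balance is arbitrary and only its shift with age is read, without a test. Cxcl5 and Mmp3 had no balance, because each lacked a mark. Over 15640 genes with both marks the median shift, old minus young, was 0.06. The shift was 0.09 at Il6, -0.05 at Lif, 0.12 at Il1a, 0.81 at Il1b, 0.05 at Ccl2 and Ccl7, -0.40 at Cxcl1 and -0.52 at Mmp13.

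At Il1b the balance was 0.26, 0.63 and 0.52 in young and 1.04, 1.87 and 0.92 in old libraries. The old libraries lay above the young ones, as they did in 13.4% of all genes. The H3K27me3 log2 fold change of this window was -0.02, and the shift in the balance lay in the 2.0 kb H3K27ac region with 9 to 19 reads. At Cxcl1 the balance was 0.58, 0.98 and 0.99 in young and 0.44, 0.35 and 0.57 in old libraries, so the old libraries lay below, by a narrow gap, as in 5.83% of all genes. The H3K27ac log2 fold change of the Cxcl1 window was -0.05. Its H3K27me3 log2 fold change of 0.35 rested on 1 region of 2.5 kb, with 7 to 19 reads. On the signal as deposited, and with a window of 10 kb, the Cxcl1 groups overlapped. At Mmp13 the old libraries spread from -0.33 to 0.89 and overlapped the young range of 0.64 to 1.12.

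**Figure D4:**
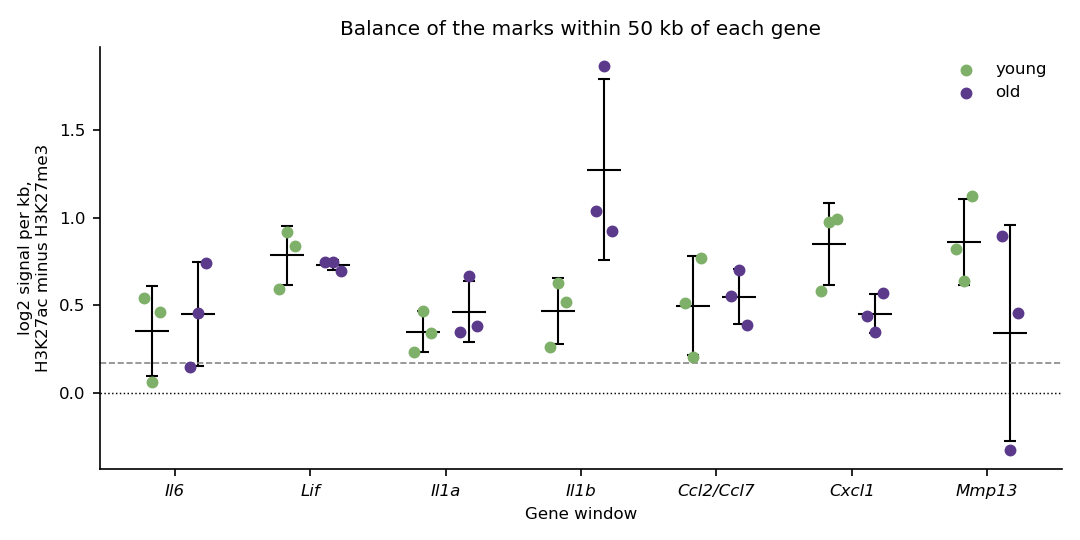
Balance of the marks in the 50 kb windows of the 8 genes with both marks, with Ccl2 and Ccl7 as 1 window. It is log2 H3K27ac signal minus log2 H3K27me3 signal, each per kb of that mark's regions. Points show each young (green) and old (purple) library, with mean and SD (n = 3). The dashed line is the median of all genes in young libraries (0.17); the old libraries lie above the young ones at Il1b and below them at Cxcl1, and overlap them elsewhere.

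Other genes of the same pathway were read by the region over their start. Among 39 further secreted factors, 22 starts had H3K27ac and 16 had H3K27me3. Among 9 receptors, 5 had H3K27ac and 3 had H3K27me3, and the leukocyte chemokine receptors Ccr1, Ccr2, Ccr3 and Cxcr2 had no H3K27ac. Among 24 regulators, 22 had H3K27ac and 4 had H3K27me3. No start-site region of these lists was called in either mark (limma, 0 higher and 0 lower), where 0.0833% of all H3K27ac and 0.729% of all H3K27me3 start-site regions were called. At an unadjusted p under 0.05 there were 1 secreted factor, 1 receptor and 1 regulator for H3K27ac, and 1, 1 and 2 for H3K27me3, out of the starts just counted. Among all start-site regions 7.83% of H3K27ac and 17.6% of H3K27me3 had such a p. The median log2 fold change of H3K27ac was 0.06 over the secreted factors, -0.12 over the receptors and 0.02 over the regulators, beside 0.02 over all start-site regions. For H3K27me3 it was -0.06, 0.03 and -0.06, beside -0.06.

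The genes with the smallest p in each list are given by value, none having passed the adjusted test. For H3K27ac these were Igfbp7, a secreted insulin-like growth factor binding protein (162 ± 25.4 in young and 224 ± 45.0 in old libraries, log2 fold change 0.46, adjusted p = 0.265), and Il11, a gp130 cytokine in a region with 5 start sites (0.18, adjusted p = 0.562). Il1r1, the signalling receptor of interleukin 1, was at 281 ± 19.4 in young and 230 ± 25.3 in old libraries, without overlap (log2 fold change -0.29, adjusted p = 0.136). Lifr, the receptor of LIF, was at -0.62 (adjusted p = 0.539). Nfkb2, an NF-kappaB subunit, was at 9.85 ± 2.32 in young and 17.8 ± 3.39 in old libraries, also without overlap (0.82, adjusted p = 0.168), and Cebpd, a C/EBP factor, was at -0.24 (adjusted p = 0.622). The groups did not overlap at Igfbp7 and Il11 either, and overlapped at Lifr and Cebpd.

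For H3K27me3 the genes with the smallest p were Mmp12 (log2 fold change -0.45, adjusted p = 0.324) and Tnf (-0.20, adjusted p = 0.413) among the secreted factors. Among the receptors they were Lifr (-0.20, adjusted p = 0.25) and Il6ra (0.08, adjusted p = 0.892), and among the regulators Tlr2 (0.33, adjusted p = 0.249) and Gata4 (-0.17, adjusted p = 0.358). The groups did not overlap at Mmp12, Tnf and Lifr, and overlapped at Il6ra and Gata4. The regions of Tnf, Gata4 and Tlr2 held 4, 5 and 2 start sites, so their values are not of these genes alone. In both marks the genes were picked by p, so separate groups are no further support. Lifr carried both marks at its start, H3K27ac over 3.0 kb and H3K27me3 over 195.0 kb. The H3K27me3 region of Tlr2, a receptor for bacterial lipoproteins, was at 179 ± 23.3 in young and 227 ± 50.6 in old libraries, with overlap.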

How the data were processed

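The 12 CUT&RUN libraries were grouped by their GEO labels. The paper provided describes other experiments and lent only its style. For each mark, the authors deposited 1 table of regions, in steps of 500 bp, with a signal per library. The submitters' processing notes name Bowtie2, Picard and mm10 (GRCm38); versions and the peak caller are not given in the sources used here. The deposited signal is the reads of a region scaled by library size and divided by a constant 0.5 kb, not by region length: in each column 100% of values were whole multiples of 1 read (within 0.05 reads), so whole reads were recovered. The value of 0.5 kb itself was assumed, and the library totals follow from it. Columns left unused numbered 0.

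Genes were taken from GENCODE vM21 and regions annotated with its protein-coding genes. Columns were scaled by the median of ratios, and log2(signal + 0.5) was fitted with limma 3.58.1 (R 4.3.3; trend, robust, two-sided, no block, no filter on low values), with Benjamini-Hochberg adjustment over the whole table. A fold change on this scale understates low regions. The count tests of edgeR 4.0.16 (quasi-likelihood) and DESeq2 1.42.0 on recovered reads were alternatives; edgeR called 96 H3K27ac and 394 H3K27me3 regions. No 2 replicates agreed within sampling noise. Intervals and floors cover counting and replicate spread of these libraries only. The limma fit was run on simulated reads with large changes at well-covered regions only. This does not cover regions with few reads or small changes. Named regions were those over or nearest each start and the 3 with the smallest p per mark. Of the other lists, 2 genes per list and mark with the smallest p were named. The members and lists were chosen with earlier results of these data known.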

Additional observations from a re-analysis of the deposited data

How the results depend on the processing

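Old replicate 2 was the shallowest library of both marks, and the regions that moved most near Il1b and Cxcl5 held 1 to 20 and 1 to 11 reads per library. With 3 libraries per age, moderate differences at single regions could not be told from replicate spread. The scaling assumes that the typical region is level: on the signal as deposited the median of all regions was -0.12 for H3K27ac and -0.13 for H3K27me3, and 16 of 105 H3K27ac calls and 21 of 774 H3K27me3 calls were higher in old, against 10 of 26 and 23 of 137 in the main analysis.

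No H3K27ac region of the members was called under any alternative tried. The only H3K27me3 member region ever called was the 2.5 kb region upstream of Il1b, which its deposited state already set apart as young. It was called with the signal as deposited (log2 fold change -1.61), with edgeR (-1.57) and with a pseudocount of 2 (-0.96). The replicate block (-1.52) and the fit without old replicate 1 (-1.75) also called it. Its adjusted p ran from 0.0197 to 0.33 over 14 alternatives, and it was removed, with the regions at Cxcl2, the 1.0 kb region upstream of Cxcl5 and the nearest H3K27me3 region of Mmp13, when the lowest 25% of regions was left out. The only member window ever called was the H3K27ac window of Cxcl5, without old replicate 1.

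Counts over all regions moved by more than 1.5 times from the 26 H3K27ac calls to 6 with DESeq2, 96 with edgeR, 14 and 63 with pseudocounts of 0.1 and 2, 105 on the deposited signal and 0 without trend and robust moderation. From 137 H3K27me3 calls they moved to 70 with DESeq2, 394 with edgeR, 81 without the lowest 25%, 71 with a pseudocount of 0.1, 774 on the deposited signal and 35 without trend and robust moderation. Gene windows moved from 117 for H3K27ac to 37 with DESeq2, 37 on the deposited signal and 13 without trend and robust moderation. For H3K27me3 they moved from 76 to 116 with edgeR, 618 on the deposited signal and 10 without trend and robust moderation. The cause of these changes was not tested. The median log2 fold change of the member regions was -0.12 for H3K27ac on the deposited signal, and for H3K27me3 it was 0.091 with edgeR, 0.072 without the lowest 25% and 0.026 on the deposited signal.

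Leaving out 1 library in turn gave 2 (without young replicate 1) to 45 (without old replicate 1) H3K27ac regions and 10 (without young replicate 3) to 313 (without old replicate 2) H3K27me3 regions. For windows it gave 22 (without young replicate 1) to 274 (without old replicate 1) and 23 (without young replicate 1) to 193 (without old replicate 3), with 0 to 1 member windows for H3K27ac and 0 to 1 member regions for H3K27me3. Besides the values given with the results, and among named regions and windows with a log2 fold change over 0.15 in size, 1 left-out library moved the value by over 1.5 times for H3K27ac at the Cxcl1 start (0.095 to 0.286), and for H3K27me3 at Ccl11 (-0.237 to -0.119), in the Il6 window (0.117 to 0.249) and at Mmp13 (nearest region 0.137 to 0.350, window 0.108 to 0.380). The median over the member regions then lay between -0.097 and 0.013 (H3K27ac) and between 0.080 and 0.148 (H3K27me3).

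Values close to 0 turned in sign. The H3K27ac region of Ccl2 and Ccl7 was at -0.036 with DESeq2, -0.065 with edgeR and -0.094 on the deposited signal, and ranged from -0.17 to 0.19 without each library. Their summed window was at -0.024, -0.044 and -0.10 in the same settings, and from -0.12 to 0.14. On the deposited signal the H3K27ac windows of Lif and Il1a were at -0.10 and -0.048, and the H3K27me3 region and window of Lif at -0.049. A window of 10 kb gave -0.11 for H3K27ac at Il1a, 0.0053 at Cxcl1 and 0.15 for H3K27me3 at Il1b. A window of 100 kb gave -0.0070 for H3K27ac at Il6, 0.047 for H3K27me3 at Il1b and -0.079 at Mmp13. Without each library the H3K27ac window of Lif ranged from -0.0085 to 0.051. For H3K27me3 the ranges were -0.018 to 0.18 at Lif, -0.093 to 0.017 at Il1a, -0.067 to 0.047 at Il1b and -0.080 to 0.0017 at Ccl2 and Ccl7. The balance at Lif moved from -0.05 to 0.40 with a window of 10 kb. A further 543 values of single regions, windows and balances kept their sign and side of the threshold, or, for balances, stayed within the replicate spread.

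Whether the replicate numbers pair young and old samples was not settled. Same-numbered young and old libraries correlated by -0.054 to 0.066 in H3K27ac and by -0.078 to 0.043 in H3K27me3 in their deviations from the group means. Deviations from a mean of only 3 libraries are tied to one another, so these correlations cannot exclude pairing. With the sample number as a replicate block, 81 H3K27ac and 309 H3K27me3 regions were called, 1 of them a member region. In each mark 1 of 3 old libraries correlated best with the young library of its own number.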
